A study of Sus scrofa with 6 samples.

Results

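REG3 lectins were described here through 94 windows of 201 bases, among 37784 windows listed in 6 small-RNA libraries of pig duodenum. Members were chosen by the sequence of the listed windows, and a window is listed only where its count reaches a minimum. A window was taken when it translated, in any reading frame, to at least 25 residues with at least 70% identity to REG3A or REG3G, and 77 windows did so. Another 17 windows were taken because they overlapped one of these by at least 1 base, and mitochondrial windows were not considered. Over its best 25 residues the weakest matching window had 72% identity, and the nearest window outside the rule in this stretch of the chromosome had 53%. All 94 lay on chromosome 3 within 301.1 kb. They merged into 19 blocks, which by their position and order along the protein fell into 4 places with the layout of a REG3 gene, called copies A to D here. The search counted both lectins together: 56 windows passed with both proteins, 6 with REG3A alone and 15 with REG3G alone, so no copy was assigned to one of the 2 names. The RefSeq gene table of the Sscrofa11.1 assembly places REG3G on chromosome 3.

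REG3 proteins are secreted C-type lectins of the gut. REG3G, and its relative REG3A, bind peptidoglycan of Gram-positive bacteria, and human REG3A can form pores in their membranes. Enterocytes and Paneth cells make them, interleukin-22 and bacterial signals through MyD88 raise their transcripts, and they help to keep bacteria away from the epithelial surface. Their mRNA codes for a signal peptide, which is removed on secretion, followed by a single lectin domain.

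The 5 animals were Sutai piglets aged 28 days, kept under one set of housing conditions, per the labels. The 2 AA piglets (524 and 2129) are resistant, and the 3 GG piglets (512, 2134 and 2383) sensitive, to Escherichia coli carrying F18 fimbriae. AA and GG are genotypes at position M307 of FUT1, a fucosyltransferase gene whose product builds a glycan used as the F18 receptor. The labels give 2 full-sib pairs of 1 AA and 1 GG animal, 524 with 512 and 2129 with 2134. An AA animal paired with 2383 could not be sequenced successfully according to the labels, which leaves 2383 without a partner. RNA of piglet 512 was sequenced in 2 runs, and these were summed in every comparison between animals. The labels name no infection or other treatment, and the tissue was whole duodenum, so fewer cells of a type and less RNA per cell cannot be told apart. Listed counts summed to between 42354 (piglet 2383) and 192861 (piglet 2134) per library, no window with fewer than 5 counts was listed, and a gene absent from a list can therefore still be present in the tissue.

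Blocks fell into 5 classes by the part of the protein they encode: the signal-peptide block, the second, the third and the fourth block through the lectin domain, and the last block that reaches the stop codon. The sequences that define the family in these files are shown for copy D, which had the highest count. The signal-peptide sequence (chr3:59556286-59556465, reverse strand, 180 bases) starts at the start codon. The second (chr3:59555586-59555786) and the fourth (chr3:59554292-59554492) are whole windows on the reverse strand, and the last (chr3:59554038-59554175, reverse strand, 138 bases) ends at the stop codon. Capitals mark the codons with the best run of matches to REG3A or REG3G, and in the last block also those up to the stop codon. The genome build of these coordinates is not given in the sources used here.
Copy D, the signal-peptide block: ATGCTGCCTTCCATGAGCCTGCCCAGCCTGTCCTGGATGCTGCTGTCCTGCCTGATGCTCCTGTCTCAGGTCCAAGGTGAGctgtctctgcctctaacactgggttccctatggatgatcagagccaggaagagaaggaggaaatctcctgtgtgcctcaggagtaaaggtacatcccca
Copy D, the second block: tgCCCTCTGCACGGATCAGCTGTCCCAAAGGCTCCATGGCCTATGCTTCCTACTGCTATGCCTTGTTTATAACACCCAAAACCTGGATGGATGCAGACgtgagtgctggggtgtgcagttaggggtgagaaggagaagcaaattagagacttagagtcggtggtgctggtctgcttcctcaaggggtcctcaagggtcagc
Copy D, the fourth block: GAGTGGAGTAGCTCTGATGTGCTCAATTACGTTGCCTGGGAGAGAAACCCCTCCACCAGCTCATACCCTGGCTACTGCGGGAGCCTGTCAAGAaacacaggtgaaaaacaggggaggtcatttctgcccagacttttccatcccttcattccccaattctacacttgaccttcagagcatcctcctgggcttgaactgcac
Copy D, the last block: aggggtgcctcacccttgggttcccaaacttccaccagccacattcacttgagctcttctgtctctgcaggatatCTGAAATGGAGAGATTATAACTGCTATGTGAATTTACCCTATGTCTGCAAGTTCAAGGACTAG

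The third block shows how little the copies differ. The 132 bases below are the codons of that block found in every copy, from copy B (chr3:59302957-59303088, forward strand), copy C (chr3:59426339-59426470, reverse strand) and copy D (chr3:59555343-59555474, reverse strand). Here capitals mark the bases that differ from copy D: 5 in copy B and 1 in copy C. The stretch of copy A (chr3:59256551-59256682, forward strand) had 0 differences from copy D and is not repeated.
Copy B, the third block: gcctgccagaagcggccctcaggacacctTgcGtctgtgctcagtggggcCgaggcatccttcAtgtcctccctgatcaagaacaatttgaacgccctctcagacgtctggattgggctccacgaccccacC
Copy C, the third block: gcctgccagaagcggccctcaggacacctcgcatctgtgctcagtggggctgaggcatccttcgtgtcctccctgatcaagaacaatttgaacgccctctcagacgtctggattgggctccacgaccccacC
Copy D, the third block: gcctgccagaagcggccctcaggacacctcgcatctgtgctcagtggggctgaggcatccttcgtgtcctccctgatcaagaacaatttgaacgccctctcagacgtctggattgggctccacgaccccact

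Copy A lay at chr3:59255454-59258197 and copy B at chr3:59302522-59304454, both matching on the forward strand. Copy C lay at chr3:59425015-59427519 and copy D at chr3:59553721-59556516, both on the reverse strand. Copies A, C and D had all 5 blocks, and copy B had 4, with no listed signal-peptide window. The copies spanned 1.93 to 2.80 kb each, and the blocks covered 5245 of their 9978 bases (52.6%). The 15 gaps between blocks were 45 to 731 bases long. Of these, 7 were long enough to hold a window of 201 bases without touching a block, 3958 bases in all, and none held one. Blocks reach beyond the codons, and how reads lie within a window is not in the lists.

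**Figure D1:**
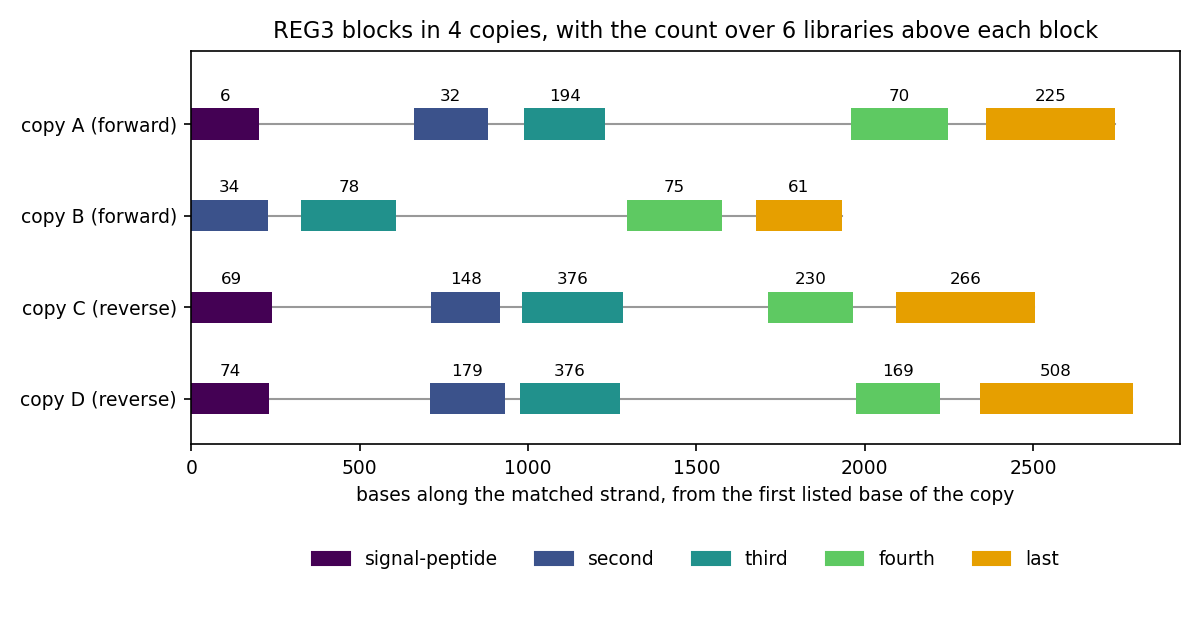
Each row is one copy drawn along its matched strand, with the distance in bases from its first listed base on the horizontal axis and one box per block, coloured by class. The number above a box is its count summed over the 6 libraries, from 6 in the signal-peptide block of copy A to 508 in the last block of copy D.

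Copies A and D were identical in sequence wherever both were listed. Over the 5 classes 1026 bases could be compared without gaps, and 0 differed. Whether A and D are 2 genes or 1 locus placed at 2 positions in the build cannot be told apart here, so the number of copies and their summed total are those of the deposited coordinates. Over all listed bases, compared without gaps, C and D differed at 211 of 1393, A and C at 150 of 1011 and A and B at 87 of 997, of which the last block held 184, 133 and 60. Bases were lined up by their codons, so an inserted or missing base would put those beyond it out of register. These counts are therefore not numbers of substitutions, and alignment with gaps was not done. Over the coding bases alone, copies C and D differed at 10 of 516 bases and 1 of 172 residues, and copies A and C at 11 of 534 bases and 2 of 178 residues. Copy B differed from A at 10 of 456 coding bases and from C at 9 of 456. The identity of coding bases was 97.81% for A with B, the lowest of the 6 pairs of copies, and 98.06% for C with D. Against the human search sequences the encoded residues were more distant: over the residues compared, identity to REG3A ranged from 63.0% (last block, copy C) to 88.9% (signal-peptide blocks), and identity to REG3G from 64.7% (copies A and B in the third block) to 81.5% (signal-peptide blocks). These identities were what the search selected and are given as a description.

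A read that matches several near-identical copies may be counted at each, so a single copy's level is uncertain. The sources do not say if reads were collapsed to distinct sequences before counting, and sharing was not tested on reads. Copies C and D had equal highest-window counts in 9 of 25 comparisons, a comparison being one class in one library that listed both. In the third block, for example, copy C and copy D had 9 and 9 counts in AA 524, 149 and 148 in AA 2129, 57 and 58 in run 1 of GG 512, 51 and 51 in run 2, 47 and 47 in GG 2134, and 6 and 6 in GG 2383. These numbers are almost the same library by library. Copies A and B had equal counts in 5 of 14 comparisons.

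Copies A and D, identical in sequence, nevertheless had equal counts in only 1 of 18 comparisons. The ratio of A to D had a median of 0.418 and ran from 0.194 to 1.09. The windows of A and D covered different parts of the gene: a median of 100.5 of the 201 bases was common to both (from 0 to 168), whereas windows of C and D shared a median of 199. In the third block of AA 2129, copy A had 77 counts and copy D 148, with 63 bases in common. A and D lie on opposite strands and C and D on the same strand. The part of window placement in the lower counts of copy A was not tested. The total over copies can hold the same reads more than once, and the comparisons below are between piglets, within a class or a copy.

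**Figure D2:**
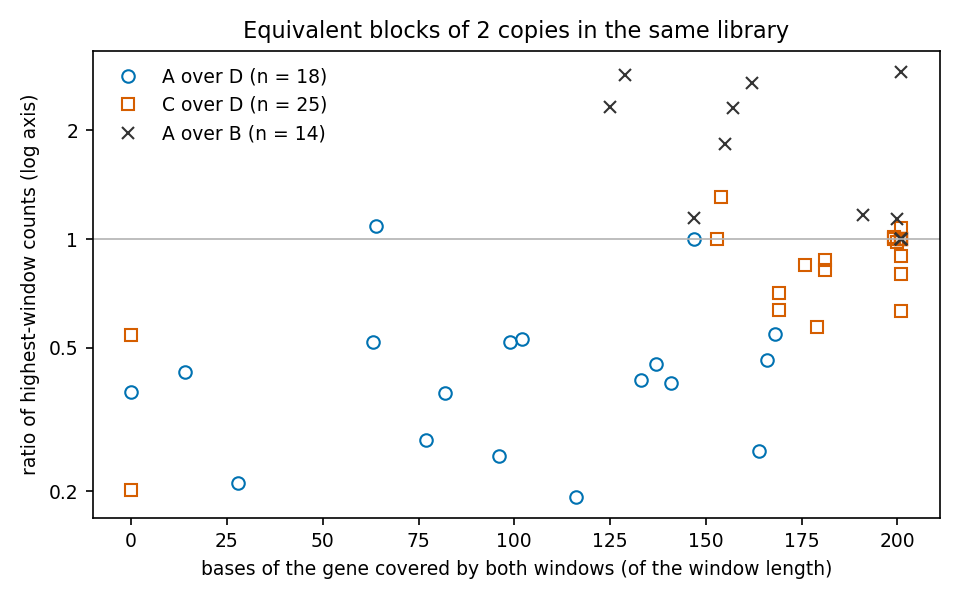
Each point is one class in one library, with the number of bases that the highest windows of 2 copies have in common (of 201, without gaps) on the horizontal axis and the ratio of their counts on a log axis. Ratios of C over D gather near 1 where all or nearly all bases are shared, and those of A over D have a median of 0.418.

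REG3 windows held 148 of 56334 listed counts in AA 524, 1469 of 127075 in AA 2129, 430 of 96244 and 413 of 89996 in the 2 runs of GG 512, 667 of 192861 in GG 2134, and 43 of 42354 in GG 2383. As shares of the listed counts, with 95% Wilson intervals, these were 0.263% (0.224 to 0.309), 1.16% (1.1 to 1.22), 0.447% (0.407 to 0.491), 0.459% (0.417 to 0.505), 0.346% (0.321 to 0.373) and 0.102% (0.0754 to 0.137). AA 2129 was the highest by far and GG 2383 the lowest, with AA 524 between GG 2134 and GG 2383. The intervals of the 2 runs of GG 512 overlapped, and no interval of one piglet overlapped that of another. Intervals treat each count as 1 read and cover counting error only, and reads counted at several copies would make them too narrow.

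**Figure D3:**
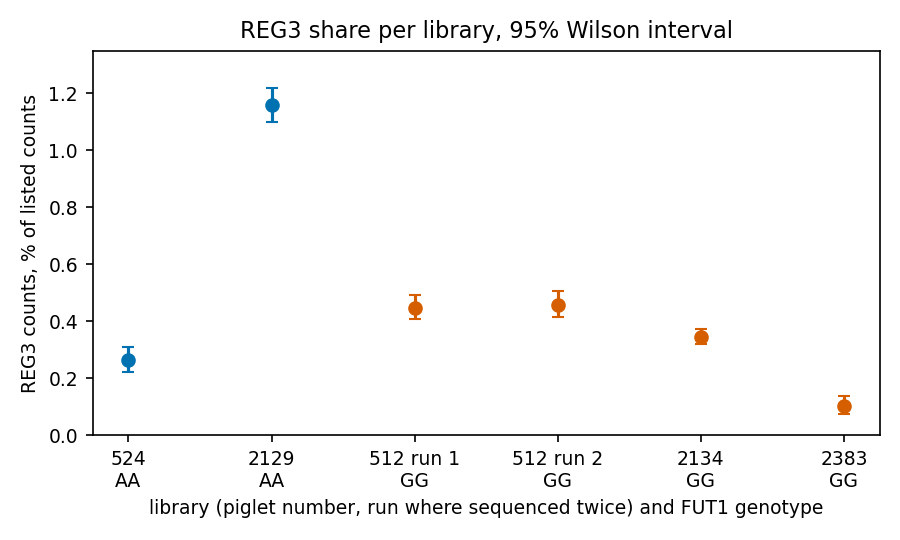
REG3 counts as a percentage of all listed counts (vertical axis) in each library, with 95% Wilson intervals, AA libraries in blue and GG libraries in orange. AA 2129 stands at 1.16% and the other 5 libraries between 0.102% and 0.459%, with the other AA piglet among the GG piglets.

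The number of windows listed followed a different order from the counts. There were 19 in AA 524, 23 in AA 2129, 23 in each run of GG 512, 26 in GG 2134 and 6 in GG 2383. Of the 19 blocks, AA 2129 listed 19, GG 2134 listed 17, the runs of GG 512 listed 16 and 17, AA 524 listed 11 and GG 2383 listed 5. The windows themselves were rarely the same from library to library: 74 of 94 were listed in 1 library, 16 in 2, 2 in 3 and 2 in 4. Within a block the start of the highest window moved between libraries by a median of 39 bases over the 18 blocks listed more than once (5 to 254 bases). Blocks were therefore compared, not windows. Neighbouring windows of one library overlapped in 35 places among 120 window listings, so a block total can count a read more than once, and totals with the highest window of each block alone are given in the closing section.

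The signal-peptide blocks, which encode the part cut off on secretion, had the fewest counts. They held 5 counts in AA 524, 68 in AA 2129, 31 and 18 in the runs of GG 512, 27 in GG 2134 and none listed in GG 2383. In copy A this block was listed in 1 library, AA 2129, with 6 counts. Over all libraries the class made up 4.70% of REG3 counts, or 22.2 counts per 100 bases of block.

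The second blocks held 8 counts in AA 524, 216 in AA 2129, 38 and 64 in the runs of GG 512, 67 in GG 2134 and none listed in GG 2383. Run 2 of GG 512 listed copies A and B, with 7 and 6 counts, which run 1 did not, and over the 15 blocks listed in both runs the ratio of run 2 to run 1 was 0.474 to 1.4 with a median of 0.889. The class held 44.8 counts per 100 bases. AA 524 listed it in copy D only.

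The third blocks, in the lectin domain, had the most counts per length over all libraries, 91.5 per 100 bases, and were listed in every library. In AA 524 and GG 2383 the last blocks had more, 4.45 against 4.2 and 2.06 against 1.07 counts per 100 bases. They held 47 counts in AA 524, 407 in AA 2129, 158 and 139 in the runs of GG 512, 261 in GG 2134 and 12 in GG 2383. The fourth blocks held 21, 257, 80, 76 and 110 counts in the same libraries and were not listed in GG 2383, at 50.8 counts per 100 bases over all libraries. AA 2129 led both classes, and the low piglets were AA 524 and GG 2383.

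The last blocks, which end the coding sequence, held 67 counts in AA 524, 521 in AA 2129, 123 and 116 in the runs of GG 512, 202 in GG 2134 and 31 in GG 2383. Counting also windows that only overlapped a match, they made up 33.4% of REG3 counts (70.4 per 100 bases), against 32.3% in the third blocks. Within a library their share of REG3 counts lay between 28.1% and 45.3%, except in GG 2383, where it was 72.1% of 43 counts. All windows that only overlapped a match were in this class. In AA 2129 they held 400 of its counts against 121 in windows that matched the protein themselves. They held 9 against 58 in AA 524, and 79 against 44 and 81 against 35 in the runs of GG 512. In GG 2134 they held 140 against 62, and in GG 2383 18 against 13. In copy D the stop codon ends at chr3:59554038 on the reverse strand. The windows with 238 counts in AA 2129 and 104 in GG 2134 (chr3:59553724-59553924 and chr3:59553735-59553935) lay wholly beyond it.

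By copy, D had 67 counts in AA 524, 595 in AA 2129, 179 and 168 in the runs of GG 512, 273 in GG 2134 and 24 in GG 2383. Copy C had 54, 484, 161, 156, 221 and 13 in the same order, copy A had 21, 266, 61, 65, 108 and 6 counts, and copy B had 6, 124, 29, 24, 65 and none listed. The order of the copies was D, C, A, B in each library. As shares of REG3 counts, D held 40.5% to 55.8%, C 30.2% to 37.8%, A 14.0% to 18.1% and B at most 9.75%, and reads counted at several copies would hold these shares close.

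Piglets were compared on counts divided by a size factor, because the lists differ in depth and composition. The scaled REG3 total was 195 in AA 524, 1424 in AA 2129, 478 in GG 512, 592 in GG 2134 and 67.0 in GG 2383. The AA piglets averaged 809 ± 869 (SD, n = 2). The GG piglets averaged 379 ± 276 (SD, n = 3). The spread within AA was larger than the difference between the means, and the groups overlapped. AA 2129 had the highest scaled count in 18 of 19 blocks even with 4 counts given to each unlisted block. In the other, the signal-peptide block of copy A, it was the only piglet listed, with 6 counts. In the last blocks of copies C and D, all counts of AA 2129 (136 and 238) lay in windows that only overlapped a match. The matching windows of these blocks were listed in other piglets but not in AA 2129. Among the 2771 merged regions of all kinds that were tested, AA 2129 was the highest in 695 (25.1%). Blocks of near-identical copies may hold the same reads, so the 19 blocks are not separate observations.

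**Figure D4:**
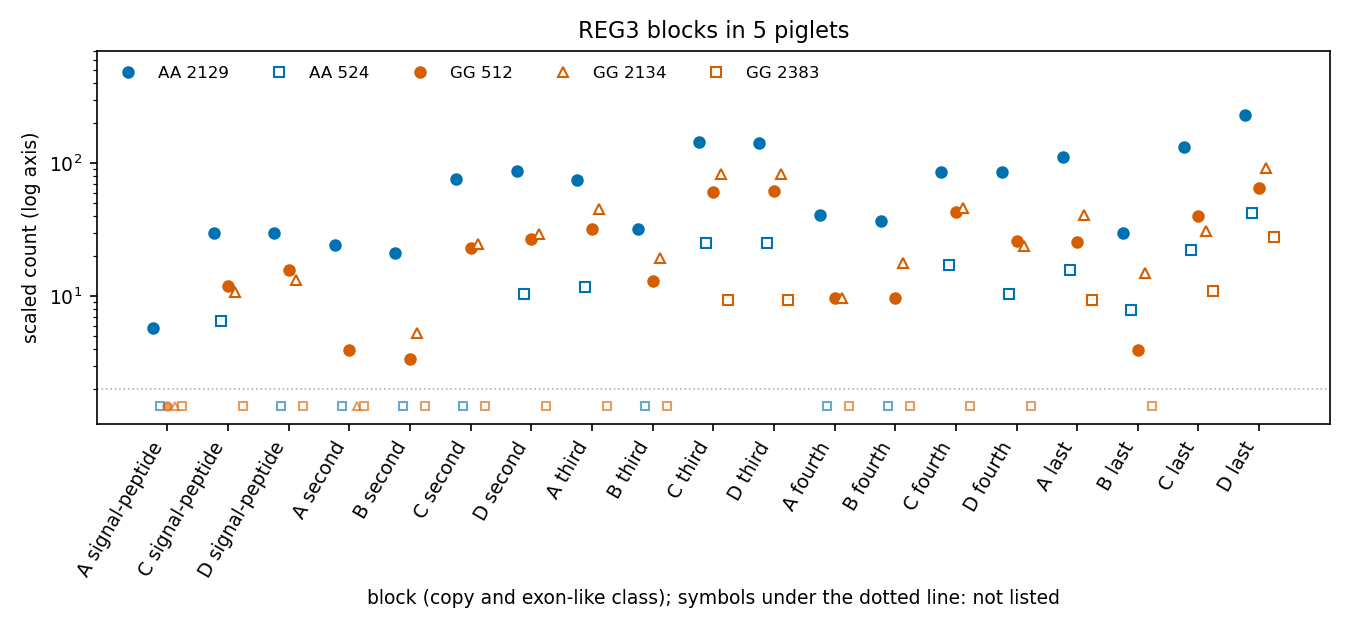
Scaled counts (log axis) of the 19 blocks, ordered by class, in the 5 piglets, AA in blue and GG in orange, with symbols under the dotted line for blocks not listed. AA 2129 (filled blue) is the highest listed value in every block, AA 524 was not listed in 8 blocks and GG 2383 not in 14.

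The comparison of GG with AA asked whether REG3 small-RNA counts differed with the FUT1 genotype, and no difference was detected. On the log2(scaled count + 1) scale the REG3 total was 0.81 lower in GG (log2 difference -0.81, SE 1.0, limma adjusted p = 0.707). Of the 19 blocks, 16 had at least 10 counts in at least 2 piglets and were tested. The signal-peptide and the second block of copy A and the second block of copy B did not reach this. None was called (0 of 16) at an adjusted p under 0.05. The background was 0 of 2771 regions called (0.00%), and 241 (8.70%) had an unadjusted p under 0.05, against 0 of the 16 REG3 blocks. With no filter on low counts, 7 of 19 blocks had an unadjusted p under 0.05 (limma), against 727 of 24658 regions. The REG3 total there had an unadjusted p of 0.0138 and an adjusted p of 0.865 (limma), and 0 REG3 blocks were called. Without AA 524, which leaves 1 AA piglet, the median log2 difference over the 16 blocks was -2.15. With the sib pair as a block in the fit, 51 regions were called, all higher in GG, and still 0 REG3 blocks, and the log2 difference of the REG3 total was -0.05 (limma, SE 0.55, adjusted p = 0.978).

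The log2 differences of the 16 tested blocks ran from -1.27 (the last block of copy B, SE 0.82) to -0.05 (the third block of copy B, SE 1.09), with a median of -0.79. All 16 were below 0, compared with 41.4% of all regions tested, whose median was 0.21. This common direction rested on AA 2129 and GG 2383. Without AA 2129, 15 of 15 tested blocks were above 0 and the total was 0.58 higher in GG (limma, SE 1.03, adjusted p = 0.769). Without GG 2383, 8 blocks were above and 8 below 0, and the total differed by 0.01 (limma, SE 0.89, adjusted p = 0.994). With the sib block, 8 were above and 8 below, with a median of 0.04. With matching windows only, 1 of 15 tested blocks was above 0, at 1.11, and 14 were below. With unlisted regions at 0 counts, 2 blocks were above and 14 below. With the highest window of each block, 1 was above and 15 below. The 2 groups separated without overlap in 0 of the 19 blocks, against 961 (34.7%) of the 2771 regions tested. As a share of listed counts, REG3 averaged 0.709% ± 0.632 in the 2 AA piglets and 0.30% ± 0.18 in the 3 GG piglets (mean ± SD). A 2-sided exact permutation test over the 10 splits gave p = 0.4, and the smallest p this design allows is 0.1.

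The full-sib pairs went opposite ways. In the first, the scaled REG3 total was 195 in AA 524 and 478 in its GG sib 512, a ratio of GG to AA of 2.45. In the second it was 1424 in AA 2129 and 592 in its GG sib 2134, a ratio of 0.416. GG 512 was above AA 524 in 10 of the 11 blocks listed in both animals, and GG 2134 below AA 2129 in 17 of 17. These comparisons take all windows of a block. In the matching windows of the last block of copy C, GG 2134 had 21 counts and AA 2129 none listed. Counting also blocks that are unlisted in one animal, and giving each of these the 4 counts that would leave it unlisted, GG 512 was above in 15 of 19 and GG 2134 below in 19 of 19. With 2 counts given to unlisted regions, as in the fit, 15 of the 16 tested REG3 blocks were higher in GG 512 than in AA 524. Of all 2771 regions 68.4% were. In the second pair 0 of the 16 were higher in GG 2134 than in AA 2129, against 57.6% of the regions. The pattern of opposite signs was shown by 15 of the 16 tested REG3 blocks and by 22.7% of the 2771 regions. A difference between 2 pairs cannot be tested with 1 pair of each kind.

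Every class had the same contrast when all of its windows were counted. In the first pair the ratio of GG to AA was 2.72 for the third blocks and 1.54 for the last. The last blocks of AA 524 held 58 counts in matching windows and 9 in windows that only overlapped a match. In the 2 runs of GG 512 the matching windows held 44 and 35, and the others 79 and 81. Divided by the size factors, 0.760 and 1.76, the matching windows of this class were therefore higher in AA 524 than in GG 512. AA 524 lacked a listing for 2 of 3 signal-peptide, 3 of 4 in the second and 2 of 4 in the fourth class, so the ratios of these classes depend on what an unlisted block holds. With unlisted blocks of AA 524 at 4 counts and at 0, they were 1.62 and 4.22 for the signal-peptide blocks, 2.20 and 5.49 for the second, and 2.32 and 3.20 for the fourth. In the second pair, where AA 2129 listed every block, the ratios with unlisted blocks at 0 were 0.364, 0.284, 0.587, 0.392 and 0.355 from the signal-peptide to the last class. By copy, with unlisted blocks of AA 524 at 4 counts and at 0, they were 1.64 and 2.58 for A, 1.27 and 3.81 for B, 2.35 and 2.53 for C, and 2.11 and 2.23 for D in the first pair. In the second pair they were 0.372, 0.480, 0.418 and 0.420. The last blocks of AA 524 were all listed, and as shares of listed counts they were nearly level in the first pair, at 0.119% in AA 524 and 0.128% in GG 512.

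**Figure D5:**
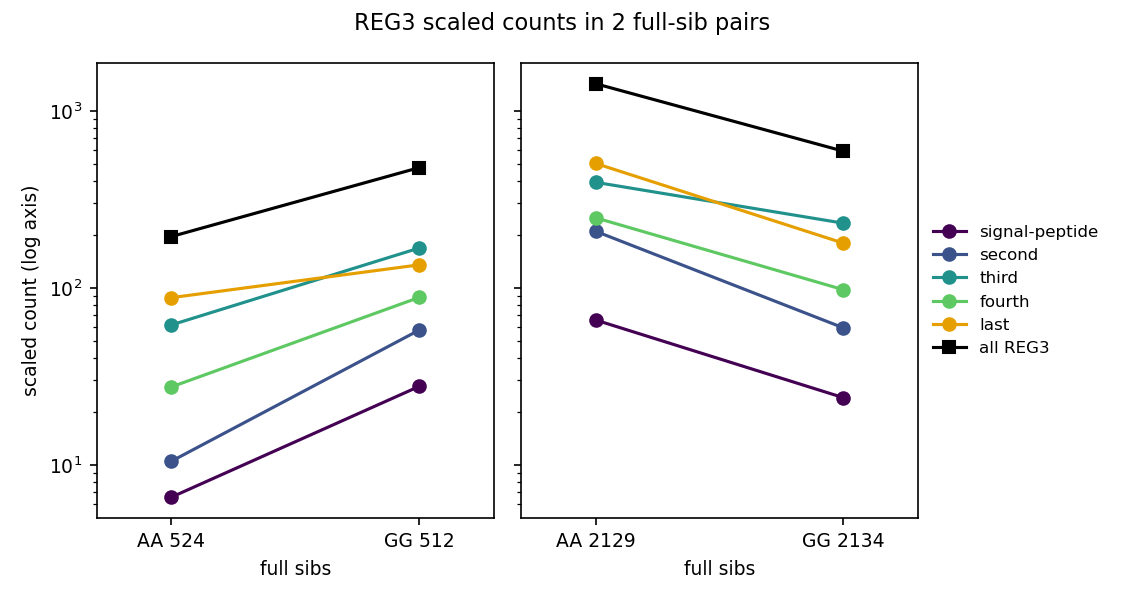
Scaled counts (log axis) in the AA and the GG animal of each full-sib pair, for the 5 classes and for all REG3 windows. Unlisted blocks enter at 0, and windows that only overlap a match are included. Every line climbs from AA 524 to GG 512 and drops from AA 2129 to GG 2134.

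Depth moved with these values in part. The listed totals leave out windows under 5 counts, and the full sequencing depth is unknown. AA 524 and GG 2383, the lowest in scaled REG3 counts, also had the lowest listed totals (56334 and 42354), and the 5 counts needed for listing were 0.00888% and 0.0118% of the listed counts there, against 0.00259% to 0.00556% in the other 4 libraries. With the floor of GG 2383 applied to every library, the REG3 share of the counts kept was 0.222% in AA 524, 2.28% in AA 2129, 0.622% in GG 512, 0.820% in GG 2134 and 0.102% in GG 2383. The piglets at both ends kept their places, and GG 2134 moved above GG 512. The signal-peptide, the second and the fourth blocks of GG 2383 had no listed window, which does not show that they were absent.

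Other mRNAs were looked for by the same match in windows that had not matched REG3, with 28 search proteins, of which 18 were found. Of the 10 antimicrobial and interleukin-22 related genes among them, 3 had windows: PIGR, UBD and LYZ. PIGR, the receptor that carries polymeric immunoglobulin across the epithelium, had scaled counts of 44.7 in AA 524, 131 in AA 2129, 67.4 in GG 512, 28.4 in GG 2134 and none listed in GG 2383. LYZ, lysozyme, was listed in the AA piglets only, with 6 counts in 524 and 36 in 2129. UBD, a ubiquitin-like protein induced by inflammatory cytokines, was listed in GG 512 (18 counts) and GG 2134 (96 counts) only. Outside the windows that matched REG3, no listed window matched REG1A, REG4, PLA2G2A, LCN2, S100A8, S100A9 or TFF3. REG1A and REG4 are relatives of REG3 in the same lectin family. The 77 windows that matched REG3 were not compared with these relatives.

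Of 16 such mRNAs with enough counts, the 5 that followed REG3 most closely over the 5 piglets, on the log2(scaled count + 1) scale with unlisted genes at 0, were PIGR (Pearson r = 0.867), JCHAIN (0.841), IGKC (0.810), FABP2 (0.767) and IGLC (0.595), as a description over 5 animals that share the scaling of their libraries. JCHAIN, the joining chain of secreted immunoglobulin, had scaled counts of 38.2 and 51.4 in AA 524 and 2129, and of 59.5, 39.9 and 7.79 in GG 512, 2134 and 2383. AA 2129 was the highest piglet in 4 of the 16, and GG 2134 in 9. REG3 counts in matching windows were 25% of the counts of all named mRNAs in AA 524, 32.9% in AA 2129, 11.6% in GG 512, 9.94% in GG 2134 and 2.39% in GG 2383.

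Markers were used to check the tissue and its makeup. The 4 enterocyte markers were each found in at least 1 library, and ANPEP and APOA1 in every piglet. FABP1 was not listed in AA 524, and FABP2 not in AA 524, GG 512 and GG 2383. Summed scaled counts were 71.0 in AA 524, 577 in AA 2129, 745 in GG 512, 1339 in GG 2134 and 388 in GG 2383. ANPEP alone gave 51.3, 446, 502, 1022 and 210 of these. The sums were lowest in AA 524, one of the piglets low in REG3, and highest in GG 2134. Plasma cell markers (3 of 3 found) summed to 101, 195, 229, 82.6 and 48.3 in the same order. LYZ, on both the Paneth cell and the myeloid list, was listed in AA 524 and AA 2129 alone. No window matched PLA2G2A (Paneth) or S100A8 and S100A9 (myeloid). The goblet cell marker AGR2 had scaled counts of 13.2 in AA 524, 8.72 in AA 2129 and 8.50 in GG 512 and was not listed in the others. TFF3 had no matching window. The erythroid marker HBB was listed in AA 524 only (13.2 scaled), and HBA had no matching window. No listed window matched the 2 pancreatic acinar markers, PRSS1 and CLPS, although pancreas also makes REG3 proteins. The search sequences came from memory and were not compared with the windows that matched REG3. A missing match therefore does not show that a gene was absent from the lists. The part of cell makeup in the REG3 differences was not tested.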

How the data were processed

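Small RNA of duodenum was measured in 6 libraries of 5 piglets, grouped by the FUT1 genotype in the labels. Per the file headers, the authors deposited whole-number counts for windows of 201 bases (described as other in unit, since the lists leave out counts under 5), each with its sequence. The aligner, the build and the rule that placed windows are not stated in the sources used. REG3 and 28 other mRNAs were searched for by ungapped translated matching to 30 protein sequences. The 28 were searched for only in windows that had not matched REG3. The letters of the search sequences come from memory, mostly the human proteins, and no database was at hand to check them. Members and gene lists were chosen with earlier results of these data known.

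Windows overlapping by 1 base were merged into regions, and blocks more than 10 kb apart made separate copies. Counts were scaled by TMM (trimming 30% of ratios and 5% of abundances) over regions listed in every piglet, with size factors of 0.760, 1.03, 1.76, 1.13 and 0.642 for piglets 524, 2129, 512, 2134 and 2383. Unlisted regions were given 2 counts in the fit. Regions with at least 10 counts in at least 2 piglets were fitted in limma 3.58.1 (R 4.3.3) after adding 1 to the scaled counts and taking log2, with a trended prior variance and Benjamini-Hochberg adjustment over all regions. The fit was tested on simulated data. Shares were compared by a 2-sided exact permutation test, and intervals are Wilson intervals at 95%. Full sibs come from the labels, and the deviations of sibs from the mean of the 2 sib animals of their group correlated at 0.214 over 2771 regions, a value that 2 pairs share by construction. Each piglet is a separate animal. Named genes were every REG3 block, the listed antimicrobial genes that were found, and the 5 mRNAs most correlated with REG3. Most genes of the planned lists had no search sequence and were not analysed here. Alternatives were the scaling, the value of unlisted regions, the match rule, each piglet left out, each run of piglet 512 and the sib block. A common floor was added after seeing the data. Python 3.11.15, NumPy 2.4.6, SciPy 1.17.1 and matplotlib 3.10.9 were used.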

Additional observations from a re-analysis of the deposited data

Results flagged for a closer look

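The 2 full-sib pairs moved in opposite directions under the same contrast of genotypes. The REG3 share of listed counts was 0.19 percentage points higher in GG 512 than in AA 524, and the difference of GG 2134 from AA 2129 was -0.81 percentage points. The difference between the pairs was not tested, since each direction rests on 1 pair.

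A place between copies C and D carried windows with a REG3-like match of 15 to 17 residues, too short for the rule, at chr3:59519919-59520125. The match of 15 residues, in the window of AA 2129, was on the reverse strand, and the matches of 17 residues were on the forward strand. Over 25 residues the highest identity was 53%. The place had 26 counts in AA 2129, 9 and 10 in the 2 runs of GG 512 and 10 in GG 2134, and was not listed in AA 524 and GG 2383. These counts were not part of any comparison above.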

How the results depend on the processing

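With 5 piglets, of which 2 were AA, no setting called the REG3 total. Its log2 difference stayed below 0 in 15 of 17 alternatives, with adjusted p from 0.593 to 0.994 (limma). The alternatives reuse the same piglets, and 60% identity took the same 94 windows as the main rule, so its value could not differ. Leaving out 1 piglet moved the difference of the total from -2.25 (without AA 524) to 0.58 (without AA 2129), with 0.01 without GG 2383. The direction of the total therefore rests on AA 2129 and on GG 2383. The median over tested blocks moved from -2.15 to 0.55 in the same fits. The sib pairing as a block gave -0.05 for the total and 0.04 for the median over blocks. The share difference was -0.409 percentage points, -0.311 with matching windows only, -0.165 with the highest copy per class, -0.736 with the common floor, and -0.856 to 0.0373 on leaving out 1 piglet. With the highest window of each block the total differed by -0.80. The count of regions called, 0 (241 at an unadjusted p under 0.05), was 47 with scaling by total counts (32 higher in GG), 51 with the sib block, 88 with no filter, and 0 to 4 on leaving out 1 piglet (4 without GG 2134, 2 without AA 2129). The cause was not tested. Over all regions the median was 0.21 (0.08 if scaled by total counts). The number of REG3 windows was 94 at 60% identity, 52 at 80% and 0 at 90%, and 98 and 42 with a minimum of 15 and 40 residues. The 2 planned count models were not run, since the lists leave out low counts. Depth limits GG 2383 and AA 524 most.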

Other observations

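Within 500 bases of the copies, 11 further windows were listed that the protein match does not reach. Those beyond the signal-peptide end, 5 windows, held 16 counts in AA 2129, 6 in run 1 of GG 512, 58 in GG 2134 and 6 in GG 2383. The 6 windows beyond the last block held 34 counts in AA 2129 and were listed in no other library. For the end before the signal peptide GG 2134 was therefore above AA 2129, unlike in the 19 blocks. No test was made on these values.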
